A study of Rattus rattus with 18 samples.

Results

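The miR-200 family was described in rat brain after transient middle cerebral artery occlusion (tMCAO). The members were 6 mature miRNAs of the family, taken by name with no threshold on their values: rno-miR-200a-3p, rno-miR-200b-3p, rno-miR-200b-5p, rno-miR-200c-3p, rno-miR-141-3p and rno-miR-429 (rno, for the rat, is left out from here on). The array held probes for 761 rat miRNAs, among them also the other strands miR-200a-5p, miR-200c-5p and miR-141-5p. MicroRNA levels had been measured on 18 single-colour (Cy5) arrays from 9 Sprague Dawley rats, all male by the study's text. There were 3 rats after sham surgery, 3 after tMCAO and 3 of a group named remote limb postconditioning (PostC). Each rat gave an array of the ischemic core and an array of the tissue around it (peri). tMCAO is a stroke model in which a filament blocks the middle cerebral artery and is then withdrawn, while sham rats have the surgery alone. PostC stands for short bouts of limb ischemia given after a stroke, but the labels do not say whether these rats also had tMCAO. The labels name temporo-parietal cortex for core and striatum for peri, whereas the study's text places them the other way round. The study's text names more than 1 time of sacrifice after reperfusion for this model without saying which applies to the arrays, and gives body weight rather than age. The organism field reads Rattus rattus, and the probes are those of Rattus norvegicus. The labels name no shared cage, litter or day. Each rat gave a single array per region, so p-values measure the spread between rats and between arrays together.

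The miR-200 family is known for keeping epithelial cells epithelial. Its 3p strands pair with the messenger RNAs of Zeb1 and Zeb2, repressors of E-cadherin, and these factors repress the family's own genes in turn. The hairpins come from a pair of genomic clusters, miR-200b with miR-200a and miR-429, and miR-200c with miR-141. In the nervous system the family is best known from olfactory and other sensory epithelia, and it is scarce in the parenchyma of the adult brain. The 5p strands are usually the less abundant products of these hairpins and have other seeds.

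The mature sequences, as the array design gives them, are shown because the seed (bases 2 to 8 from the 5′ end, in capitals) sets which messenger RNAs a strand can pair with, and because near-identical members can hybridise to each other's probes.
rno-miR-200a-3p: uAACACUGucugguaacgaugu
rno-miR-141-3p: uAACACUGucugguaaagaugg
rno-miR-200b-3p: uAAUACUGccugguaaugaugac
rno-miR-200c-3p: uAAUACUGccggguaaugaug
rno-miR-429: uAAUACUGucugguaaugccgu
rno-miR-200b-5p: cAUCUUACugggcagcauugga
rno-miR-200a-5p: cAUCUUACcggacagugcugg

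The first 5 are 3p strands and form 2 seed groups. miR-200a-3p and miR-141-3p share the seed AACACUG, and miR-200b-3p, miR-200c-3p and miR-429 share AAUACUG, which differs from it by C4U, counted from the 5′ end of the miRNA. No other probe on the array had either seed. miR-200a-3p and miR-141-3p differ by 2 single-base edits over the whole strand, miR-200b-3p and miR-200c-3p by 3, and miR-200a-3p and miR-429 by 4. Signals of these probes are therefore uncertain as to the member they come from. miR-200b-5p has the seed AUCUUAC, which on this array was shared only with miR-200a-5p, the 5p strand of a neighbouring hairpin. Those 5p strands are 6 edits apart, and miR-200a-5p was the probe nearest to miR-200b-5p in sequence. Genomic positions of the hairpins were not analysed here.

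Most of the family lay at the background of the array. A miRNA counted as detected where the median of its 4 spots was above a limit set from the 612 empty spots of that array (their median plus 3 scaled median absolute deviations). miR-200b-5p was detected on 9 of 18 arrays, miR-200b-3p on 3, miR-200c-3p on 1, and miR-200a-3p, miR-141-3p and miR-429 on 0. Of all 761 probes, 123 (16.2%) were detected on 0 arrays. The detection limit ranged from 49.1 to 566 intensity units over the 18 arrays, and the number of probes detected from 188 to 605. The limit ran from 77.4 to 346 on tMCAO arrays, from 49.1 to 171 on sham arrays and from 52.9 to 566 on PostC arrays, so spot and limit are given together below. A second limit was set in the same way from the dimmest 25% of the miRNA spots. By this limit miR-200b-5p was detected on 11 arrays, miR-200b-3p on 7, miR-429 on 2, miR-200a-3p on 1, and miR-200c-3p and miR-141-3p on 0.

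**Figure D1:**
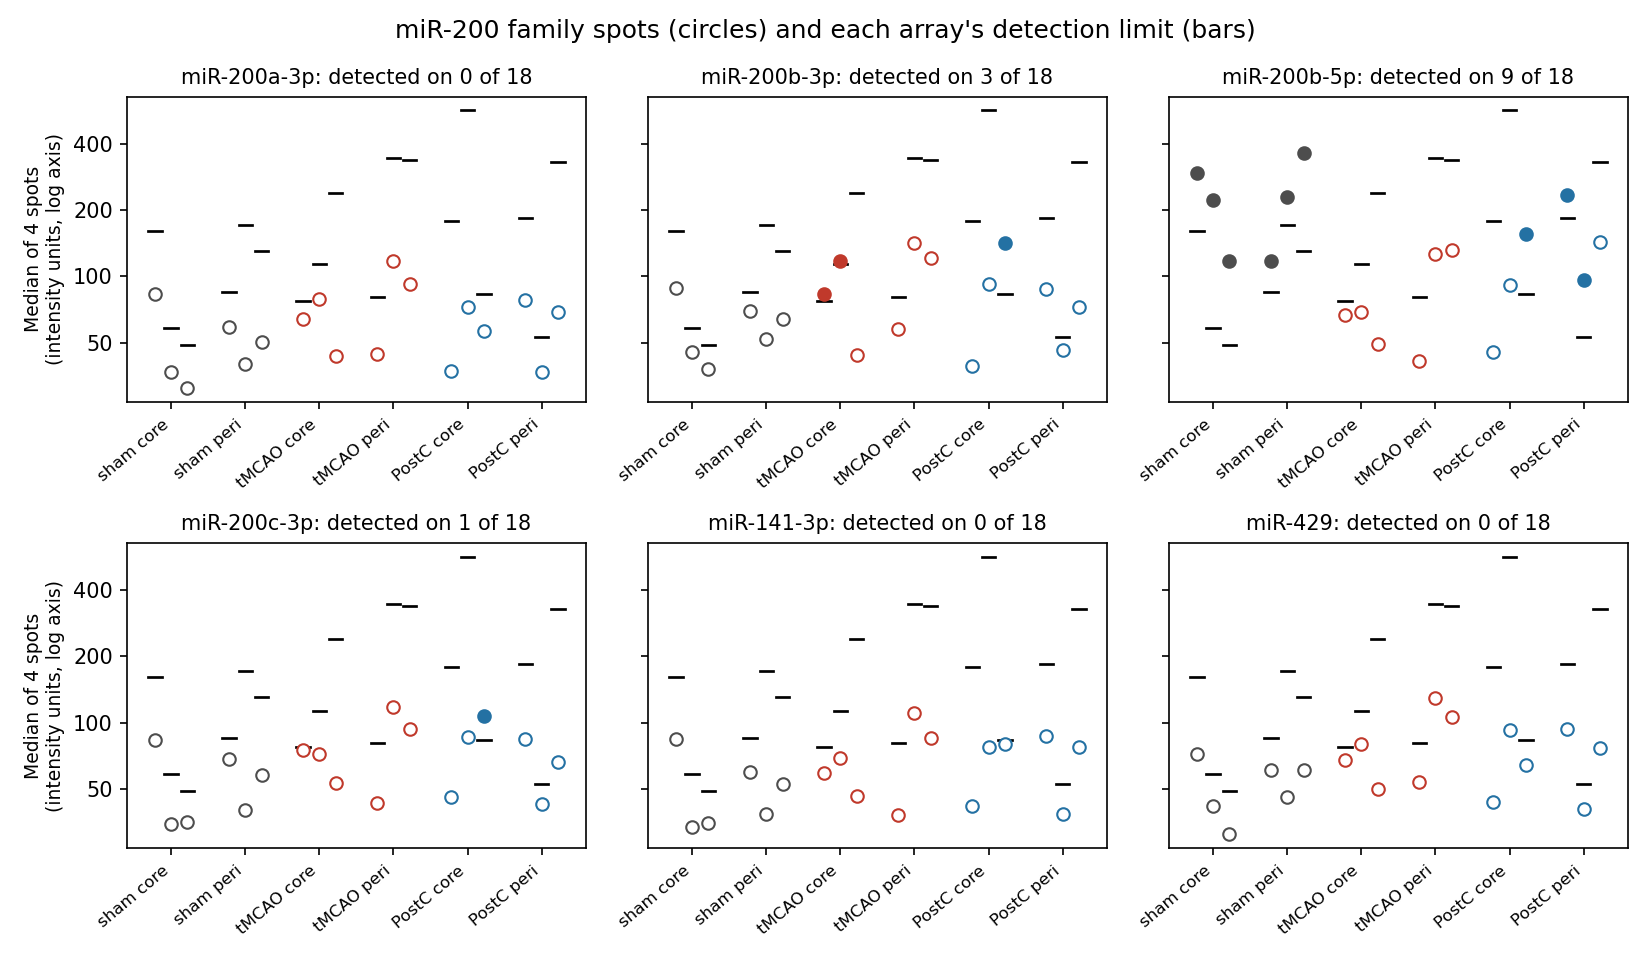
Median of the 4 spots of each miR-200 family probe (circles, intensity units, log axis) and the detection limit of the same array (black bars), for 3 rats in each of 6 groups, drawn in the order of their replicate numbers. Filled circles are detected. All 6 sham arrays have miR-200b-5p above the limit, with 0 of 6 tMCAO arrays and 3 of 6 PostC arrays, whereas the 3p probes lie below the bars on nearly all arrays.

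The miR-200b-5p probe was above the detection limit in the sham-operated brain in both regions. The other strand of the hairpin, miR-200b-3p, was detected on 0 of 6 sham arrays, and which RNA gave the 5p signal was not tested. In the sham core the miR-200b-5p spots read 293, 222 and 118 units in rats 1 to 3, against limits of 161, 58.5 and 49.1. In the sham peri region they read 118, 229 and 362 units, against limits of 84.9, 171 and 131. All 6 arrays were therefore above their own limit, by a margin that differed between rats.

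After tMCAO the miR-200b-5p spots of the core read 66.7, 68.9 and 49.3 units, against limits of 77.4, 113 and 240. In the tMCAO peri region they read 41.1, 126 and 132 units, against limits of 80.9, 346 and 338. None of the 6 arrays was above its limit, and the brighter spots, in peri of rats 2 and 3, were just above the dimmest sham spots. By the limit from dim miRNA spots, peri of rat 3 alone of the 6 was detected. Over the whole array, 304 probes were detected on all 6 sham arrays, and 12 of these (3.95%), miR-200b-5p among them, were detected on no tMCAO array.

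In the PostC core the miR-200b-5p spots read 45.2, 91 and 156 units, against limits of 179, 566 and 83, and only rat 3 was detected. In PostC peri they read 235, 96.7 and 144 units, against limits of 184, 52.9 and 329, and rats 1 and 2 were detected.

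In the table of intensities that the authors had background-subtracted and normalized, miR-200b-5p read 190, 172 and 76.9 units in the sham core and 47.6, 130 and 255 in sham peri. After tMCAO it read 9.28, 5.17 and 3.99 units in core and 2.53, 15.1 and 43.2 in peri. The 6 tMCAO arrays were thus all below the 6 sham arrays in that table, unlike in the raw spots. In PostC it read 7.16, 6.04 and 27.1 units in core and 139, 47.5 and 97.9 in peri, so all PostC core values were below the 6 sham values, and PostC peri lay within the range of sham peri but for rat 2, just below it.

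Levels were compared on a normalized log2 scale, relative to the other miRNAs, with limma fitted over the 532 probes detected on at least 3 arrays. Of the family, miR-200b-5p and miR-200b-3p were tested. The other 4 members did not pass this filter. miR-200b-5p passed it through sham and PostC arrays and miR-200b-3p through 2 tMCAO arrays and 1 PostC array, so the number of members that differ is no measure of the family as a whole.

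In the core, miR-200b-5p was lower after tMCAO. Its normalized log2 level was 8.18, 8.11 and 7.41 in sham rats (7.90 ± 0.43, SD, n = 3) and 6.79, 6.68 and 6.54 in tMCAO rats (6.67 ± 0.13, n = 3). The groups did not overlap. The log2 difference of tMCAO minus sham was -1.23 (SE 0.28), with a limma adjusted p of 0.0427. The probe had passed the detection filter only through sham and PostC arrays, and with no filter the limma adjusted p was 0.0753. Because no tMCAO array was above its limit, the fall is a lower bound: sham was at least 1.59-fold higher, taking for each tMCAO core array the higher of the probe's own value and the lowest detected signal. In this comparison 18 of 532 probes (3.38%) passed the adjusted threshold of 0.05, and 9 (1.69%) were lower, miR-200b-5p among them. Groups that did not overlap were found for 218 probes (41%). With any 1 of the 6 rats left out the adjusted p was between 0.0665 and 0.188, while the log2 difference stayed between -1.48 and -1.09. It also went above 0.05 under 7 other ways of processing or fitting, among them plain background subtraction and the authors' normalized table, over which the adjusted p reached 0.178 and the log2 difference ran from -2.68 to -1.23.

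In peri the same comparison did not pass. miR-200b-5p was at 7.03, 7.96 and 8.63 in sham rats (7.87 ± 0.80) and at 6.98, 6.86 and 7.16 in tMCAO rats (mean 7.002, SD 0.15). Sham rat 1 lay between the tMCAO values, so the groups overlapped. The log2 difference was -0.87 (SE 0.35, limma adjusted p = 0.241), and ran from -0.49 without sham rat 3 to -1.29 without sham rat 1. In peri 3 probes (0.564%) passed, and 168 (31.6%) had groups that did not overlap. No bound on the fold is given, because the limits of the tMCAO peri arrays averaged above the sham mean.

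Averaged over both regions of each rat, miR-200b-5p was 7.61, 8.04 and 8.02 in sham rats (7.89 ± 0.24) and 6.89, 6.77 and 6.85 in tMCAO rats (6.84 ± 0.061). All tMCAO rats were below all sham rats, and sham rats 2 and 3 were nearly equal, but only after averaging. Sham rat 1 was at 8.18 in core and 7.03 in peri, and sham rat 3 at 7.41 and 8.63. Core minus peri had an SD of 1.19 in sham rats, so the small spread of the sham averages came from regions that went opposite ways. The log2 difference was -1.05 (SE 0.20, limma adjusted p = 0.00951), and as a bound sham was at least 1.14-fold higher. The probe had passed the detection filter only through sham and PostC arrays, with 0 of 6 tMCAO arrays detected. With no filter the limma adjusted p was 0.0148. The exact permutation test of this value alone gave p = 0.1, the smallest that 3 rats against 3 allow. Over these averages 63 probes (11.8%) passed, 39 of them (7.33%) lower, and 218 (41%) had groups that did not overlap. With rat 2 of the tMCAO group left out the adjusted p was 0.0599, and with plain background subtraction it was 0.0506 at a log2 difference of -3.12.

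The size of the miR-200b-5p change was not shown to differ between regions. The change in core minus the change in peri was -0.36 on the log2 scale (SE 0.54, limma adjusted p = 0.938), an error larger than the value. For this term 0 of 532 probes (0%) passed the adjusted threshold, with 46 at an unadjusted limma p under 0.05. In sham rats the log2 difference of core minus peri was 0.030 for miR-200b-5p (SE 0.38), where again 0 probes (0%) passed the adjusted limma threshold and 29 were under 0.05 unadjusted.

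**Figure D2:**
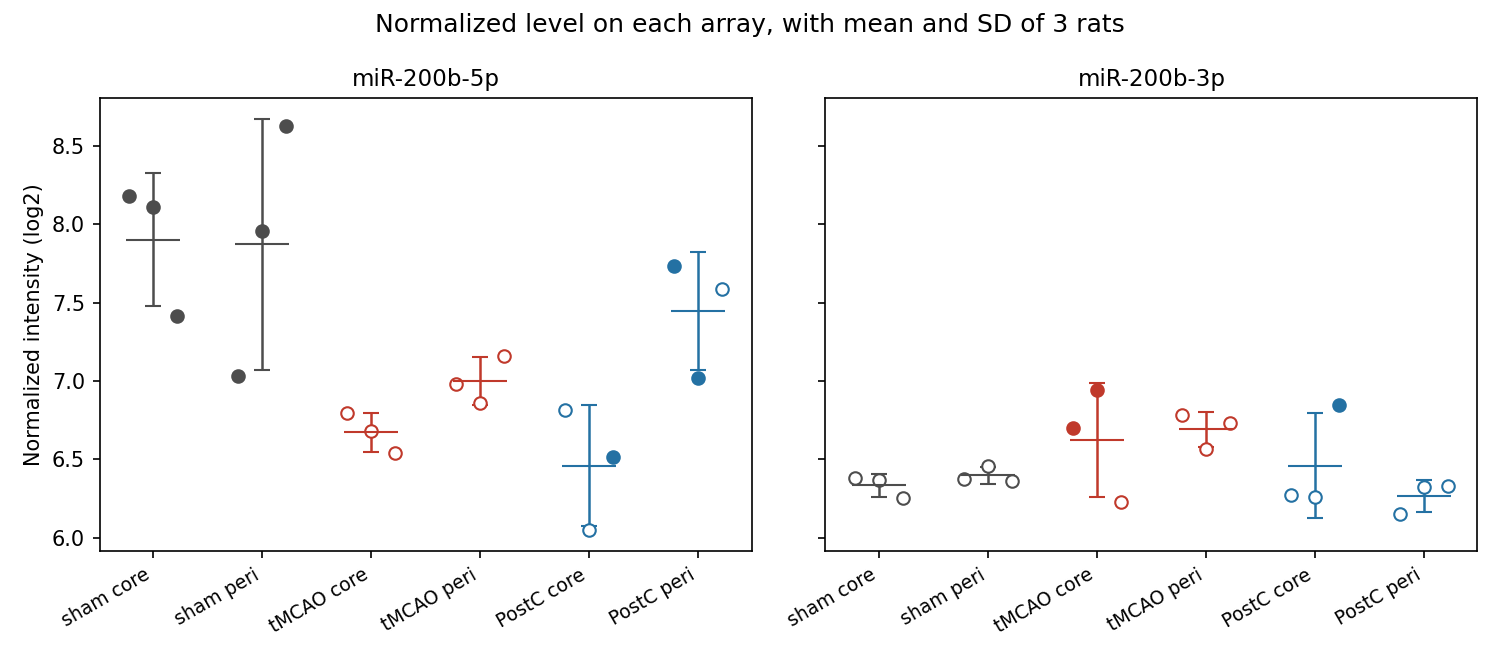
Normalized log2 intensity of miR-200b-5p (left) and miR-200b-3p (right) on each array, with the mean (long bar) and SD (whiskers) of 3 rats per group; filled circles were above the detection limit. miR-200b-5p averages 7.90 in sham core and 6.67 in tMCAO core, and 7.45 in PostC peri against 6.46 in PostC core, while miR-200b-3p stays between 6.15 and 6.94.

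Against sham, PostC core was low for miR-200b-5p, at 6.81, 6.05 and 6.52 (6.46 ± 0.39, n = 3), all below the 3 sham values. Groups that did not overlap were found for 117 probes (22%) in this comparison. The log2 difference was -1.44 (SE 0.28), but with a limma adjusted p of 0.0564 it did not pass. Only 1 of 3 PostC core arrays was above its limit, so the size of this difference is uncertain and no bound is given. In the main fit of this comparison 0 probes (0%) passed, with 90 at an unadjusted limma p under 0.05. The call depended on the processing: the adjusted p was 0.0288 with quantile normalization, 0.0355 with a GC correction, 0.0375 with the rat as a random block and 0.0447 without sham rat 3. Under these settings, in that order, 6, 2, 32 and 2 of 532 probes passed. PostC peri was at 7.74, 7.02 and 7.59 (7.45 ± 0.38), within or just below the sham peri range, with a log2 difference of -0.42 (SE 0.35, limma adjusted p = 0.991), which ran from -0.046 without sham rat 3 to -0.85 without sham rat 1. In that region 0 probes (0%) passed and 14 were under 0.05 unadjusted with limma. Averaged over regions, at 7.27, 6.53 and 7.05 (6.95 ± 0.38), the log2 difference was -0.93 (SE 0.20, limma adjusted p = 0.0957), where 1 probe (0.188%) passed.

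Between PostC and tMCAO rats no difference in miR-200b-5p passed. The log2 difference of PostC minus tMCAO was -0.21 in core (SE 0.28, but 0.72 with plain subtraction and 0.041 with quantile normalization), 0.45 in peri (SE 0.35) and 0.12 in the rat means (SE 0.20), by limma. Over all probes 12 (2.26%) passed in core, 30 (5.64%) in the averages of both regions and 0 (0%) in peri, where 31 were under 0.05 unadjusted. No fold is given, since PostC arrays were above the limit in only 1 of 3 core and 2 of 3 peri samples and the bounds came out under 1. The tMCAO and PostC comparisons with sham share the sham rats, so their values are not independent.

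miR-200b-3p, the strand with the Zeb-pairing seed, was not detected on any sham array. Its sham spots read 89, 45.3 and 38 units in core and 69.4, 52.1 and 64.3 in peri, all below the limits given above. After tMCAO they read 83.4, 117 and 43.8 units in core, with rats 1 and 2 just above their limits of 77.4 and 113. In tMCAO peri they read 57.9, 142 and 121 units and none was above the limit. By the limit from dim miRNA spots, 5 of 6 tMCAO arrays were detected, with 1 of 6 sham and 1 of 6 PostC arrays. PostC spots read 39.2, 92 and 142 units in core, with rat 3 above its limit, and 87.8, 46.5 and 72.8 in peri.

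On the normalized log2 scale miR-200b-3p lay close to the array's floor. The sham core was at 6.38, 6.37 and 6.25 and the tMCAO core at 6.70, 6.94 and 6.23, so that tMCAO rat 3 was below every sham rat. The log2 difference in core was 0.29 (SE 0.22, limma adjusted p = 0.435), and ran from 0.13 without tMCAO rat 2 to 0.49 without tMCAO rat 3, with 2.33 under plain subtraction. In peri, sham was at 6.37, 6.46 and 6.36 and tMCAO at 6.78, 6.57 and 6.73, with no overlap, and the log2 difference was 0.29 (SE 0.11, limma adjusted p = 0.216). Averaged over regions it was 0.29 as well (SE 0.12, limma adjusted p = 0.136), with tMCAO rats at 6.74, 6.76 and 6.48 and sham rats at 6.38, 6.42 and 6.31. None of the 3 differences passed. With quantile normalization, a GC correction, median scaling or plain subtraction the last one did, at 0.49, 0.60, 0.64 and 2.29, so this call depends on the scaling. Under these settings, in that order, 124, 73, 130 and 43 of 532 probes passed. Because the groups were below or at the limit, the log2 differences of miR-200b-3p do not measure a fold, and no bound is given. In PostC peri, at 6.15, 6.32 and 6.33, the log2 difference of PostC minus tMCAO for miR-200b-3p was -0.43 (limma adjusted p = 0.422), with 0 of 3 arrays detected in either group.

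The remaining 3p members gave no level that could be compared. miR-200a-3p read between 31.1 and 117 units over the 18 arrays, from 0.128 to 0.824 times the limit of the same array. miR-141-3p read between 33.6 and 111 units, from 0.137 to 0.959 times the limit, the nearest approach being in PostC core of rat 3. miR-429, which lies in one cluster with miR-200a and miR-200b, read between 31.2 and 129 units, from 0.163 to 0.879 times the limit. miR-200c-3p read between 34.7 and 118 units and was above its limit on 1 array, PostC core of rat 3 (107 against 83). That array detected 605 probes, the most of all, and was also the PostC core array on which both miR-200b strands were detected.

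In the authors' normalized table these 4 members were at a median of 0.745 (miR-200a-3p), 1.54 (miR-141-3p), 3.5 (miR-200c-3p) and 4.94 units (miR-429) over the 18 arrays. The highest value of any of them was 56.8 units, for miR-429 in tMCAO peri of rat 1. On that array the same table gave 92.1 units for miR-200b-3p, the highest of its 18, and 20.9 for miR-200a-3p, also the highest of its 18. None of the 3 was above the limit from the empty spots there, and in the raw spots their brightest arrays were others.

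The other strands of the family hairpins were dim too. miR-200a-5p, with the seed of miR-200b-5p, was detected on 1 array. miR-200c-5p and miR-141-5p were each detected on 4, 2 of sham and 2 of PostC, and on 0 of 6 tMCAO arrays. By the limit from dim miRNA spots miR-141-5p was detected on 12 arrays, 5 of sham, 2 of tMCAO and 5 of PostC. By that limit miR-200c-5p was detected on 7, 4 of sham, 0 of tMCAO and 3 of PostC, and miR-200a-5p on 0. In the rat means the log2 differences of tMCAO minus sham were -0.13 for miR-200c-5p and -0.29 for miR-141-5p, and none of their comparisons passed in limma.

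For the strands of the miR-200b hairpin the log2 differences of tMCAO minus sham stood at -1.23 (5p) and 0.29 (3p) in core and at -0.87 and 0.29 in peri. Of these only the 5p fall in core passed. As miR-200b-5p was not detected on any tMCAO array, the size of its fall is known only as the bound given above in core and has no bound in peri. As miR-200b-3p was not detected on any sham array, a fall of that strand could not have been seen, and no difference between the strands is given.

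Over the 18 arrays the normalized level of miR-200b-5p was most like that of miR-3075 (Pearson r = 0.89), miR-222-5p (r = 0.88) and miR-219b (r = 0.85), among the 531 other tested probes. Within groups, after taking each value from its group mean, r was 0.94, 0.70 and 0.72. These probes were detected on 9, 5 and 5 arrays, so the likeness is among dim probes that share the arrays and their background.

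Other miRNAs known from epithelia and choroid plexus were described as a list of 20, since the family is best known from such tissue. Of these, 14 were tested, 4 were detected on 0 arrays and 0 on all 18. After tMCAO 12 of the 14 had a negative log2 difference in the rat means, with a median of -0.28 against -0.018 over all probes, and 2 of 14 passed, both lower, where 7.33% of all probes were lower. These were rno-miR-182 (limma adjusted p = 0.0434), a miRNA of sensory epithelia, and rno-miR-34b-5p (limma adjusted p = 0.0289), known from ciliated cells. miR-34b-5p was detected on 3 sham, 0 tMCAO and 2 PostC arrays, so it was tested only through the groups where it was high, and miR-182 on 1 of 6 tMCAO arrays. The sizes of their falls are therefore not given. The lowest was rno-miR-204-5p, the leading miRNA of the choroid plexus, at -1.06 (limma adjusted p = 0.0731), and the highest miR-34b-3p at 0.36. In core alone and in peri alone 0 of the 14 passed in limma.

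The miR-183 cluster was represented by miR-182 alone. Its cluster mates miR-183-5p, miR-183-3p and miR-96-5p were detected on 0 arrays, and miR-182 on 6 of 6 sham, 1 of 6 tMCAO and 5 of 6 PostC arrays. Averaged over regions, rno-miR-182 was higher in PostC than in tMCAO rats (limma adjusted p = 0.00644), a difference whose size is not given for the same reason, and its PostC minus sham difference, 0.78, did not pass. Its comparison with miR-200b-5p was not tested. Of the miR-34 and miR-449 family 5 of 6 probes were tested. In the rat means 1 passed after tMCAO, the miR-34b-5p named above, where 7.33% of all probes passed as lower. There 4 of 5 were below 0, with a median of -0.55. In core alone and in peri alone 0 of 5 passed.

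**Figure D3:**
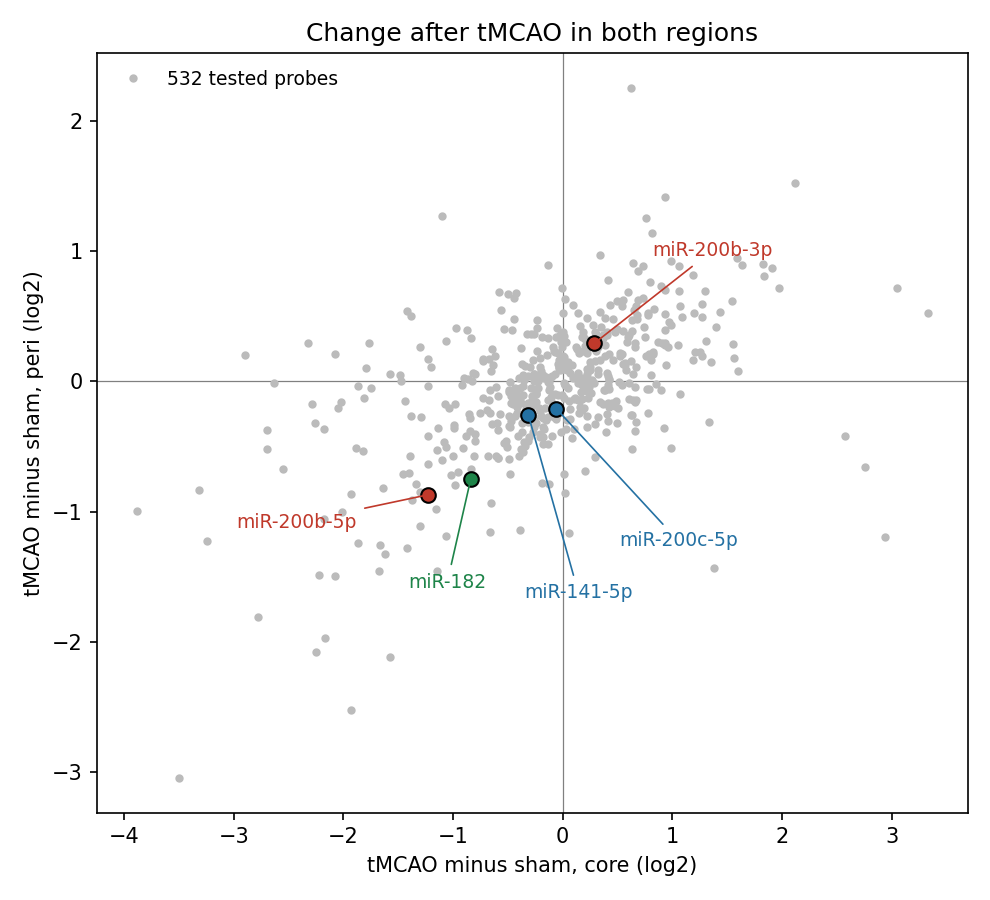
Log2 difference of tMCAO minus sham in core (x axis) and peri (y axis) for 532 tested probes (grey), with the tested miR-200 family members (red), other strands of the family (blue) and miR-182 (green). miR-200b-5p lies at -1.23 and -0.87, miR-200b-3p at 0.29 and 0.29, within the cloud of all probes.

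Markers of the cells that the samples could hold were looked at in the same comparison, where 11.8% of all probes passed. In bulk tissue fewer cells of a type and less RNA per cell cannot be told apart. The choroid plexus list (5 miRNAs, 4 of them tested, miR-211-5p detected on 2 arrays only) had a median log2 difference of -0.69 after tMCAO in the rat means with 1 past the threshold, the miR-34b-5p named above, and its summed normalized intensity in the authors' table ran from 868 to 4533 in sham core, 1014 to 1133 in sham peri, 322 to 961 in tMCAO core and 404 to 768 in tMCAO peri. In PostC it ran from 498 to 2424 in core and 452 to 1969 in peri. The epithelium list (miR-203a-3p, miR-205 and miR-375-3p) had 0 of 3 past the threshold in limma, a median of -0.037, and sums of 102 to 125 in sham core, 103 to 165 in sham peri, 66.7 to 117 in tMCAO core, 116 to 148 in tMCAO peri, 83 to 172 in PostC core and 72.2 to 143 in PostC peri. Neuronal markers were detected on all 18 arrays (6 of 6), and 3 of them, miR-9a-5p, miR-137-3p and miR-153-3p, were lower after tMCAO in the rat means, while miR-128-3p (0.44), miR-138-5p and miR-124-3p did not pass. Of the 6, 2 had a positive log2 difference and 4 a negative one. The leukocyte list had 2 of 4 tested probes higher (miR-150-5p and miR-155-5p) and the red blood cell list 1 of 2 (miR-486). miR-155-5p was detected on 0 sham, 2 tMCAO and 1 PostC arrays, so it was tested only through the groups where it was high. Of the oligodendrocyte list 0 of 3 passed and of the endothelial list 0 of 2, with medians of -1.23 and -0.52. The part of any of these in the fall of miR-200b-5p was not tested.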

How the data were processed

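The deposited array files hold each spot's median pixel intensity, not background-subtracted, and the authors also deposited a table of background-subtracted, LOWESS-normalized intensity values on a linear scale. RNA extraction was with Trizol by the study's text and with a miRNeasy kit by the labels. The spot files were read, normexp (offset 50) was applied to all spots, log2 values were normalized by cyclic loess with control spots at weight 0, and the 4 spots of a probe averaged. This scaling makes every change relative to the other miRNAs. limma 3.58.1 in R 4.3.3 (eBayes with a variance trend, Benjamini-Hochberg adjustment at 0.05) compared the 3 conditions in core, in peri, in rat means and in core minus peri, with the rat as replicate. It was tested on simulated data. Sequences were taken from the array files and figures drawn in Python 3.11.15 with matplotlib 3.10.9.

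The members (by name), marker lists and comparisons were chosen with earlier results of these data known. All members, the members of other lists that passed or were extreme, and the 3 probes most like a member detected on at least 9 arrays were named. Same-numbered arrays of different conditions are different rats, and their deviations did not go together (r over 0.1 in 8 of 36 pairs), so numbers were not used to pair rats across conditions. Core and peri carry the same rat's number and were subtracted or averaged within the rat. Their deviations had r over 0.1 in 4 of 9 rats, in all 3 sham rats and 1 other. The median r within rats was -0.14, from -0.51 to 0.49, against a median of -0.084 for the 36 pairs of different rats. Core and peri of a rat were thus not more alike than arrays of different rats. Alternatives were median scaling, quantile normalization, plain subtraction (floor 1), the authors' normalized table (floor 50), other filters, no variance trend, only the groups compared, the replicate number as a block, a random block for the rat, the methods' t-test, and leaving out each rat. Control spots at full weight and a GC correction were added after seeing the data. The intensities of the arrays, and their number, limit the precision.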

Additional observations from a re-analysis of the deposited data

How the results depend on the processing

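The number of members past the threshold in tMCAO against sham was 1 in core and became 0 with plain subtraction, the deposited table, no filter, no variance trend, the methods' t-test, control spots at full weight, the replicate block (miR-200b-5p adjusted p = 0.0888) and any rat left out (0 to 0). In the rat means it was 1, and 2 with quantile normalization, median scaling or the GC correction, which added miR-200b-3p at 0.49, 0.64 and 0.60. Under these settings, in that order, 124, 130 and 73 of 532 probes passed. It was 0 to 1 in the rat means with a rat left out, 0 without tMCAO rat 2. With plain subtraction miR-200b-3p passed in the rat means (2.29) and miR-200b-5p did not (adjusted p = 0.0506), where 43 of 532 probes passed. The replicate block kept the rat-mean call (adjusted p = 0.0279). In peri the number was 0, and 1 with median scaling (miR-200b-3p, 0.71), where 128 of 532 probes passed. In PostC against sham in core it was 0, and 1 (miR-200b-5p) with quantile normalization, the GC correction or the random block, and 0 to 1 with a rat left out, 1 without sham rat 3. Over all 532 probes 6, 2 and 32 passed under these settings, in that order, and 2 without sham rat 3. In PostC against tMCAO it was 0, and 1 with median scaling in the rat means, where 38 of 532 probes passed. In peri it was 0 to 1 with a rat left out, 1 without PostC rat 3 (miR-200b-3p, -0.46), where 59 of 532 probes passed. The difference of PostC and tMCAO in miR-200b-5p turned to 0.72 in core with plain subtraction, to 0.041 with quantile normalization, and ranged from -0.042 (without PostC rat 1) to 0.33 in the rat means with a rat left out. The log2 difference of miR-200b-5p after tMCAO was below 0 under every alternative run: with all rats from -2.68 to -1.23 in core, -3.56 to -0.82 in peri and -3.12 to -1.03 in the rat means, and with 1 left out from -1.48 to -1.09, -1.29 to -0.49 and -1.19 to -0.98.

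Over all probes, calls in tMCAO against sham went from 18 to between 3 and 46 in core, from 3 to between 0 and 128 in peri and from 63 to between 23 and 130 in the rat means with all rats. With 1 rat left out they were 0 to 13 in core (0 without sham rat 1 or 3, 1 without tMCAO rat 2), 0 to 9 in peri and 8 to 96 in the rat means (8 without tMCAO rat 2). Median scaling moved the median of all probes to -0.42 in peri and -0.21 in the rat means. A filter for detection on all 18 arrays left no member to test, and a slide or scan block was not run because the files name none. Signal near background limits every value here: 4 of 6 members were not tested, and by the limit from empty spots no member was detected on more than 9 of 18 arrays. The cause of these shifts was not tested.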
